A study of Saccharomyces cerevisiae with 8 samples.

Results

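Divergent promoters are the stretches of DNA between 2 genes that stand head to head and are read away from each other. The regions described here lie between a minus-strand gene on the left and a plus-strand gene on the right. The genes had to be direct neighbours among the 6002 protein-coding genes of the yeast reference annotation, with a gap of 100 to 1000 bp between their start codons. This rule, which used no measured value, found 1243 regions among 5868 gaps between neighbours, with 2486 genes facing them. A start counted as called when its start window, 300 bp before to 100 bp behind the start codon, touched a peak of capped RNA 5′ ends on the gene's strand. For each library a region then had both starts called, a single start called or neither.

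In budding yeast a gap between genes usually holds a stretch free of nucleosomes to which general regulatory factors and gene-specific activators bind. At its borders, polymerase II assembles separate initiation complexes for the strands, so that divergent neighbours may share bound factors while each keeps its own start. Histone, galactose and vitamin B6 genes are textbook examples of divergent pairs with shared regulation.

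The libraries were made by CAGE, in which the 5′ ends of capped RNA are sequenced, from BY4741, a haploid yeast of mating type a that lacks working HIS3, LEU2, MET17 and URA3 genes. Every strain carried either synHPRT1, the human HPRT1 locus built synthetically, or synHPRT1R, the same locus with its sequence reversed. Each was held on a YAC, an artificial yeast chromosome, or integrated in chromosome XI, which gives 4 groups of 2 libraries. Strains with a YAC grew in SC-Leu, a defined medium without leucine, and integrated strains in YPD, a rich medium, and these differences in context and in medium cannot be told apart. All cultures were kept at 30 °C and collected near an OD of 0.6. No control strain without the insert was used here. Whether replicates came from separate cultures is not stated, so every p below reflects spread between libraries that may be technical. The a-type genes MFA1, MFA2, STE6 and AGA2 had a start peak in 8 of 8 libraries, STE2 in 2 and BAR1 in 0, while the alpha-type gene STE3 had one in 0 libraries and MF(ALPHA)1 in 1. LEU2 had a start peak in 4 of 4 YAC libraries and 0 of 4 integrated libraries.

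Levels are given as summit tags, the number of reads stacked at the summit of a peak, which was recovered from the deposited fold and p of that peak. A capped RNA has 1 5′ end, so summit tags need no division by gene length. In bulk cultures, fewer cells that express a gene and less RNA per cell cannot be told apart. Summit tags were not scaled between libraries unless stated, and read totals of the libraries are unknown. A list held 1621 to 1815 native peaks on the plus strand and 1334 to 1552 on the minus strand. The weakest plus-strand peak of a library had 61 to 75 tags and the weakest minus-strand peak 93 to 125, so a left start needed more tags to be called than a right start. These are minima of a list, and a start with a higher local background needs more tags. synHPRT1R integrated replicate 2 had the most peaks, 3367 against 2995 to 3191 in the other libraries. Over the 1239 starts called in all 8 libraries, log2 tags of library pairs had a correlation across starts of r = 0.864 to 0.925.

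The sequences of 7 regions are shown because the results below turn on them, in build sacCer3, read 5′ to 3′ on the plus strand. Each is the stretch between the upstream edges of the start peaks, held to its central 300 bases where longer, so that the left gene is read leftwards from it and the right gene rightwards. The SNO1-SNZ1 stretch is chrXIII:458017-458316, the HTB1-HTA1 stretch chrIV:914985-915284 and the HHT2-HHF2 stretch chrXIV:576239-576538. The RPS15-RPP2A stretch is chrXV:253786-254085, the YPI1-RPN11 stretch chrVI:153195-153342 and the CHA1-VAC17 stretch chrIII:16925-17224. For YFL015C-HSP12, whose left start was never called, chrVI:106964-107188 runs from the left start codon to the upstream edge of the HSP12 peak. Capitals mark matches on either strand to the Gcn4 word TGACTCA, the Rpn4 word GGTGGCA, the stress response element AGGGG (STRE), the SCB word CGCGAAA, the PAC word GCGATGAG, TATAAA and TATATA.
SNO1-SNZ1: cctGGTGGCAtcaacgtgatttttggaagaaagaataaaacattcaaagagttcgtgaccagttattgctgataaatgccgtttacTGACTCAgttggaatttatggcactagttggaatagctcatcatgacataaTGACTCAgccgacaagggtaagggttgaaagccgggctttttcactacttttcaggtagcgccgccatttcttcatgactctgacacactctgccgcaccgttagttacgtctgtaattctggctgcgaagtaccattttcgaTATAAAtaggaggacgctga
HTB1-HTA1: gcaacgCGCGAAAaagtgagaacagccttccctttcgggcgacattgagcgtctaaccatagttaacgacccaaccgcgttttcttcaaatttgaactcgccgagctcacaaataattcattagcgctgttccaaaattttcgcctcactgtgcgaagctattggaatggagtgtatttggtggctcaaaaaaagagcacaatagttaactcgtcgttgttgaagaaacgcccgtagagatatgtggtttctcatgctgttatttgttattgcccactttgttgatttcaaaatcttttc
HHT2-HHF2: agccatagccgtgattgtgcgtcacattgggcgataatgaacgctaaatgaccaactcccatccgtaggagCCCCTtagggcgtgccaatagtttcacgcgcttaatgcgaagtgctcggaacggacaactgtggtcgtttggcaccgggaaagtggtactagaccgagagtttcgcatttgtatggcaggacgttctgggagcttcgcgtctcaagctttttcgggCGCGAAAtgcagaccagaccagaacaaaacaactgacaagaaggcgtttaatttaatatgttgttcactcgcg
RPS15-RPP2A: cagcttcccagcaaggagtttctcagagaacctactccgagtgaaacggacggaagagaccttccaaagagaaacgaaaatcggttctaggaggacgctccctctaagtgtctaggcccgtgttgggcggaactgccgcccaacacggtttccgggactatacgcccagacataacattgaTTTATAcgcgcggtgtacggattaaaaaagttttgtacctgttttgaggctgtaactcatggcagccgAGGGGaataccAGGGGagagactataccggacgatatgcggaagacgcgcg
YPI1-RPN11: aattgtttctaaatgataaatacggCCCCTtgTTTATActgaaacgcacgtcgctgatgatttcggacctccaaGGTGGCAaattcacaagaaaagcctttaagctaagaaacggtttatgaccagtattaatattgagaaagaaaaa
CHA1-VAC17: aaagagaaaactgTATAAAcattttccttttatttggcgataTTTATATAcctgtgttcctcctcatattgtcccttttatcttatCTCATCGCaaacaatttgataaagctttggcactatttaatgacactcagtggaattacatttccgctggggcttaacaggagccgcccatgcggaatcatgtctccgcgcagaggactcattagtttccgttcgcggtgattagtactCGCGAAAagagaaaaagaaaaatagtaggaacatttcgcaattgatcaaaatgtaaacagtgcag
YFL015C-HSP12: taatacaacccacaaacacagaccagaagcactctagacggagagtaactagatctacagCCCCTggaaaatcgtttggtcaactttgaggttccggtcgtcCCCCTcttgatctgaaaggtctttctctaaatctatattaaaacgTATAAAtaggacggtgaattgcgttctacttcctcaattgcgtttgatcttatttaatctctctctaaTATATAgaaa

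Each word was also counted in the 250 bases before all 6002 starts. TGACTCA was found there in 2.17% of starts, GGTGGCA in 2.38%, AGGGG in 18.8%, CGCGAAA in 3.35%, GCGATGAG in 3.83%, TATAAA in 43.4% and TATATA in 31.4%. The SNO1-SNZ1 stretch held 2 copies of the Gcn4 word, 1 of the Rpn4 word and 1 TATAAA. Gcn4 activates amino acid synthesis genes and Rpn4 the genes of the proteasome. YPI1-RPN11 held 1 Rpn4 word, 1 STRE and 1 TATAAA in 148 bases, and RPN11 encodes a deubiquitinating subunit of the proteasome. The STRE is bound by the stress activators Msn2 and Msn4, and the HSP12 stretch held 2 copies of it. HTB1-HTA1 held 1 SCB word, a sequence known from genes expressed late in G1, and HHT2-HHF2 held 1 SCB word and 1 STRE. In CHA1-VAC17 a TATAAA match on the minus strand overlaps the TATATA match. The stretch also held a second TATAAA, 1 PAC word and 1 SCB word. The words CGGGTAA (Reb1), CACGTG (Pho4 and Cbf1) and ACGCGT (MCB) and runs of at least 10 A or T were searched as well and had no match in these stretches.

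Both starts of a head-to-head pair were called in fewer than 1 in 3 regions. Per library, 262 to 333 of 1243 regions had both starts, a share of 23.1% ± 1.74 (SD, n = 8). A single start was called in 46.0% ± 1.04 and neither in 30.9% ± 2.18 (SD, n = 8). The share with both starts was 22.4% and 22.4% in the synHPRT1 YAC libraries, 22.7% and 21.1% in synHPRT1 integrated, 22.0% and 23.3% in synHPRT1R YAC and 24.1% and 26.8% in synHPRT1R integrated. The lowest and the highest of these have 95% exact binomial intervals of 18.8% to 23.5% and 24.3% to 29.3%, which cover counting error only. The library with the most peaks thus also had the largest share of regions with both starts.

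**Figure D1:**
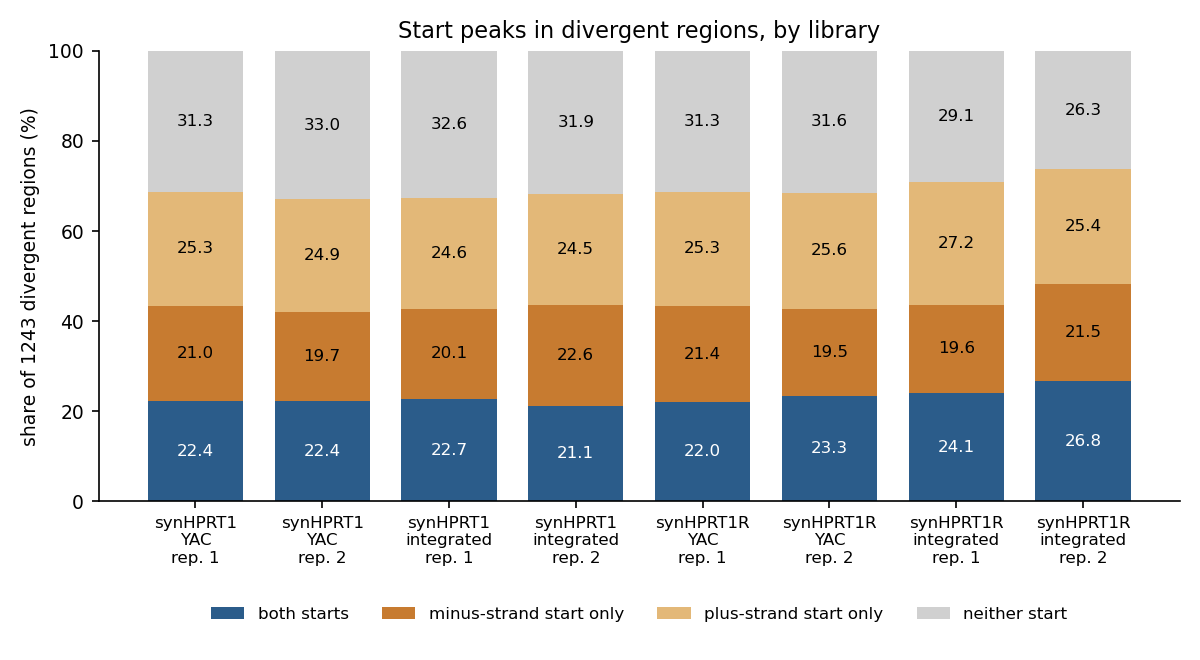
Stacked bars show, for each of the 8 libraries, the percentage of the 1243 divergent regions with both starts called, only the minus-strand start, only the plus-strand start or neither. The share with both starts lies between 21.1% and 26.8%, and a single start is the commonest outcome in every library.

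The calls of a region recurred across libraries to different degrees. Both starts were called in all 8 libraries in 73 regions, in 1 to 7 libraries in 544 and in none in 626. In 131 regions one start was called in all 8 libraries and the other in none, with the left start called in 55 and the right start in 76. Neither start was called in any library in 109 regions. Of the 2486 single starts, 566 were called in all 8 libraries and 680 in none. Of the regions with both starts in either of 2 replicates, 46.3% on average had both starts in each of them (4 pairs of replicates, 42.2% to 49.8%). For library pairs of different groups the mean was 44.4% to 44.9%. Replicates of a group therefore shared little more than libraries of different groups did.

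The next comparison asked whether the 2 starts of a pair are called together more often than their separate shares would give. The product of the shares of left and right starts averaged 21.2%, below the 23.1% observed. As a log2 odds ratio, which is 0 for starts called independently, the mean was 0.44 ± 0.12 (SD, n = 8). All 8 libraries gave a positive value (p = 0.00781 by a two-sided exact test that flips signs, the least possible with 8; 0.0125 after Benjamini-Hochberg adjustment over 8 such tests). Tandem neighbours, 2427 pairs on the same strand with gaps of 100 to 1000 bp as well, had a log2 odds ratio of 0.21 ± 0.08 (SD, n = 8). Gaps were held to the same limits, but their lengths were not matched between the arrangements. The divergent value was higher by 0.23 ± 0.14, in 8 of 8 libraries (exact sign-flip p = 0.00781, adjusted 0.0125). Every library scores the same pairs, so this and the other sign-flip tests cover spread between libraries and not the sampling of pairs or genes. Convergent neighbours, 1253 pairs that end towards each other, had 0.27 ± 0.10 (SD, n = 8). The divergent value exceeded it by 0.17 ± 0.20, in 6 of 8 libraries (exact sign-flip p = 0.0391, adjusted 0.0391). This last difference did not pass under 7 other processing choices. With 1 library left out it passed only without synHPRT1 integrated replicate 2 or without synHPRT1R YAC replicate 1, and was 0.12 to 0.20. The difference from tandem pairs was 0.12 with gaps of 100 to 600 bp only (exact sign-flip p = 0.0391, adjusted 0.0625), and its adjusted p did not pass there.

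**Figure D2:**
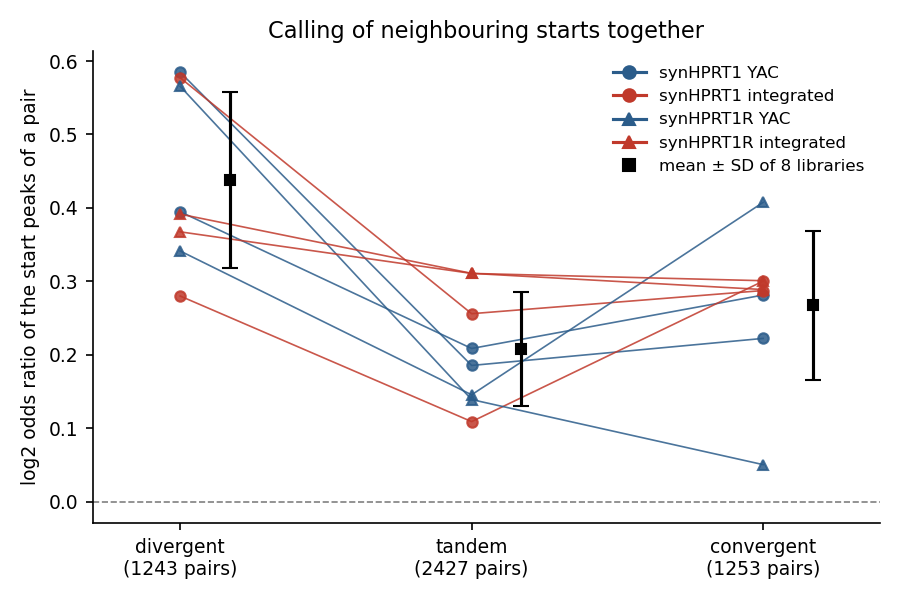
Lines join the 8 libraries across divergent, tandem and convergent neighbours, with the log2 odds ratio of the start peaks of a pair on the vertical axis and black squares for the mean ± SD. All 8 libraries lie higher for divergent than for tandem pairs, and 6 of 8 lie higher for divergent than for convergent pairs.

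Genes behind a divergent gap had a start peak more often than genes behind a tandem gap. The shares were 46.1% ± 1.901 of 2486 divergent starts and 39.3% ± 1.66 of 2427 tandem starts (SD, n = 8). The difference of 6.84 percentage points ± 0.597 had the same sign in 8 of 8 libraries (exact sign-flip p = 0.00781, adjusted 0.0125). Of the starts with a peak, 21.8% ± 0.983 in divergent regions and 2.81% ± 0.466 behind tandem gaps also had a peak of the opposite strand in the same window (SD, n = 8; exact sign-flip p = 0.00781, adjusted 0.0125). A divergent window can hold the neighbour's own start, so this measure contains the arrangement itself. The difference of 18.9 percentage points was 3.92 when the summit had to lie in the window and 5.90 with a window of 200 bp before to 50 bp behind the start codon, and passed in both (exact sign-flip p = 0.00781 each). Among starts without a peak, an opposite-strand peak was found in 19.5% ± 1.19 of divergent and 2.04% ± 0.337 of tandem windows (SD, n = 8).

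Peaks of regions with both starts ranked slightly above those of regions with a single start. Their median percentile of the deposited fold, within the list of their library and strand, was 61.1 ± 1.71 against 58.3 ± 0.697 (SD, n = 8). The difference of 2.82 ± 2.06 was positive in 7 of 8 libraries (exact sign-flip p = 0.0156, adjusted 0.0179). With gaps of 100 to 600 bp only it was 1.85 and did not pass (exact sign-flip p = 0.0859, adjusted 0.0982). Right starts were called in 48.4% and left starts in 43.8% of the regions, a difference of 4.69 percentage points ± 1.69 in 8 of 8 libraries (SD; exact sign-flip p = 0.00781, adjusted 0.0125). When peaks of both strands had to reach 125 tags, this difference was 0.352 percentage points (exact sign-flip p = 0.648), and with lists cut to equal length it was -0.724 (exact sign-flip p = 0.0469, adjusted 0.0625), so the sign depended on how the lists of the strands were matched.

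Gap length went with a small difference. Both starts were called in 21.9% ± 1.73 of 387 gaps under 300 bp, in 23.8% ± 2.64 of 323 gaps between and in 23.5% ± 1.55 of 533 gaps of 500 bp or more (SD, n = 8). The short gaps were lower than the long ones by 1.57 percentage points ± 1.47 in 7 of 8 libraries (exact sign-flip p = 0.0156, adjusted 0.0179). That difference did not pass with a stricter q, with lists of equal length or with 1 minimum of tags for both strands. The same gaps were scored in every library, so its p does not cover the sampling of gaps. At the limits of the rule, YDR524C-B-API2 with a gap of 106 bp had both starts in 1 of 8 libraries and SMI1-BNS1 with 994 bp in 0 of 8. Just outside, YBR298C-A-MAL32 with 94 bp and MNT2-ADH4 with 1001 bp had both starts in 0 of 8. Over all divergent gaps, both starts were called in 6.73% ± 3.41 of 26 gaps under 100 bp and in 15.2% ± 1.73 of 258 gaps over 1000 bp (SD, n = 8).

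The 73 regions called on both sides in every library include all 4 divergent pairs of core histone genes. HTB1, which encodes histone H2B, had 53278 and 47218 tags in synHPRT1 YAC, 79293 and 75292 in synHPRT1 integrated, 87936 and 53929 in synHPRT1R YAC and 88654 and 74848 in synHPRT1R integrated. Its partner HTA1, a gene for histone H2A, had 2692, 1337, 1419, 2852, 1335, 720, 1789 and 1680 tags in the same order. The H2B start was therefore the stronger side in all 8 libraries, with a log2 ratio of right over left tags of -5.42 ± 0.66 (SD, n = 8). HTA2-HTB2, the second pair of H2A and H2B genes, was nearly even, with 1607 to 3643 tags (median 2858) at HTA2 and 1728 to 6873 (median 3461) at HTB2. Its log2 ratio was 0.38 ± 0.44 (SD, n = 8).

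In both pairs of H3 and H4 genes the H4 start was the stronger side. HHT2, for histone H3, had 3082, 3381, 5416, 6314, 5029, 4147, 5113 and 4206 tags in the same order of libraries. HHF2, for histone H4, had 7358, 7552, 15107, 15937, 9987, 6897, 15345 and 12943 tags. HHF2 was the stronger side in every library, with a log2 ratio of 1.27 ± 0.30 (SD, n = 8). At HHF1-HHT1 the H4 start lies on the left, and it was again the stronger side in each library, with a log2 ratio of -0.97 ± 0.42 (SD, n = 8). Histone genes have near-identical copies, and how the authors' mapping split reads between copies is not stated, so the levels of single copies are uncertain.

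The most highly transcribed pair with both starts in all 8 libraries was RPS15-RPP2A, genes for a protein of the small ribosomal subunit and for an acidic stalk protein of the large subunit. RPS15 had 151331, 147959, 189194, 212993, 160886, 136339, 169433 and 145806 tags in the same order. RPP2A had 25640, 19783, 29713, 22663, 32295, 16525, 25359 and 27741 tags. RPS15 exceeded RPP2A in each library, with a log2 ratio of -2.73 ± 0.32 (SD, n = 8). At RPL11A-PRE2, which joins a ribosomal protein gene with paralog RPL11B to the gene of a catalytic proteasome subunit, RPL11A had 20282 to 32853 tags and PRE2 1712 to 3468, with a log2 ratio of -3.29 ± 0.32 (SD, n = 8). YPI1, which encodes a regulator of protein phosphatase 1, had 2340 to 6141 tags and its neighbour RPN11 1473 to 3876. Their log2 ratio of -0.83 ± 0.76 (SD, n = 8) shows the sides within a few-fold of each other.

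Other strong pairs joined genes of unlike function. SOD1, for the copper-zinc superoxide dismutase, had 1238 to 3820 tags and ADO1, for adenosine kinase, 3683 to 7412. HNT1, for a nucleotide hydrolase of the histidine triad family, had 3138 to 5364 and YDL124W, for an aldo-keto reductase, 2208 to 4236. ABP1, for an actin-binding protein, had 1551 to 3415 tags and the uncharacterised YCR087C-A 1909 to 6518. These 3 pairs were more even, with mean log2 ratios of 0.99, -0.45 and -0.66.

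Across the 73 regions the level of one start said little about the level of the other. The correlation of the log2 median tags of left and right starts, across regions and not across replicates, was r = 0.135 (rho = 0.0574, n = 73 regions that share the same libraries). The log2 ratio of the sides spread over regions with an SD of 2.34, while the median SD of a region's ratio over its 8 libraries was 0.81. The ratio thus differed more between regions than between libraries, and between any 2 libraries it had a correlation across regions of r = 0.821 to 0.936. In 46 of the 73 regions the same side was stronger in all 8 libraries, the left in 29 and the right in 17. The sides differed more than 4-fold in 31 regions, with the left stronger in 19 and the right in 12. A left start needed more tags to be called, with weakest peaks of 93 to 125 tags against 61 to 75 on the right. Whether this unequal threshold shifts the split between the sides was not tested. The most uneven region was MBF1-BUD7, named after its values were seen, with a log2 ratio of -6.40 ± 0.81 (SD, n = 8). MBF1 encodes a transcription coactivator and BUD7 a protein of exomer transport. BUD20-RPL10 leaned to the ribosomal protein gene RPL10 by 3.29 ± 0.52 and LSM3-MRPL4 to LSM3, a gene of mRNA decay and splicing, by a log2 ratio of -3.67 ± 0.78 (SD, n = 8).

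**Figure D3:**
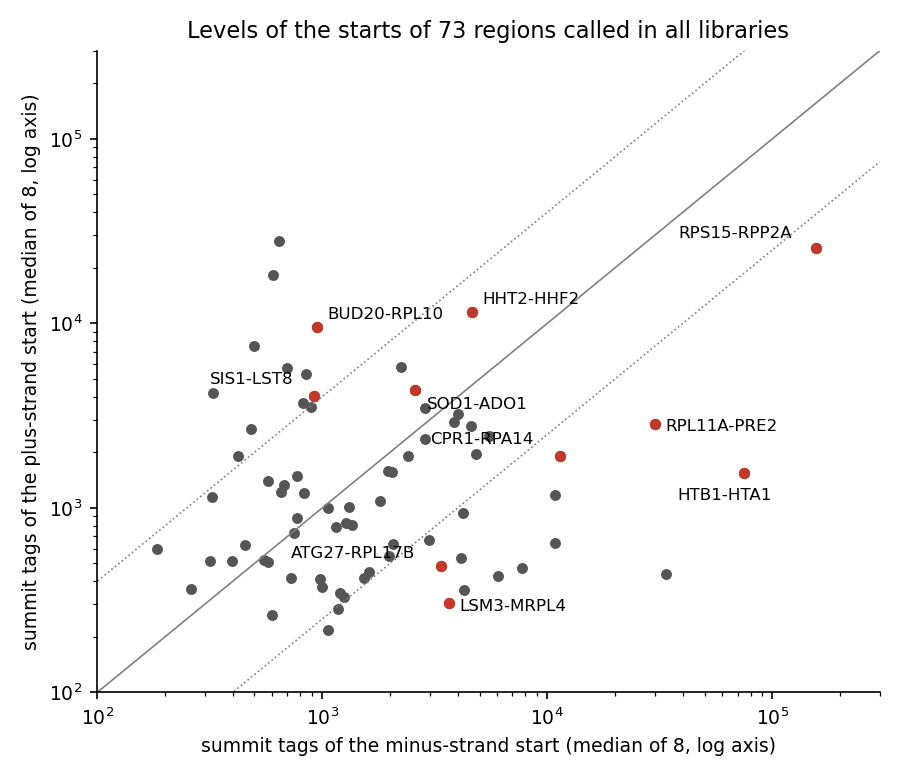
Each point is 1 of the 73 regions with both starts called in all 8 libraries, with median summit tags of the minus-strand start on the horizontal and of the plus-strand start on the vertical log axis. The solid line marks equal levels and the dotted lines a 4-fold difference; by the mean of the log2 ratio over libraries, 31 regions exceed it. Red points are named.

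In the 73 regions called on both sides in every library, the levels of the 2 starts also did not vary together from library to library. Pairs whose calls come and go together, such as SNO1-SNZ1, are not among these regions. Within the 73 regions, the correlation of left and right log2 tags over the 8 libraries had a median of r = -0.07. The same median was -0.03 over 107 tandem pairs and 0.06 over 66 convergent pairs called in all 8 libraries. All 3 are given as descriptions, since each rests on the same 8 libraries.

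The distance between the summits of a called pair followed the length of the gap. Its median per library was 532 bp ± 14.8 (SD, n = 8), with 511 bp in the lowest library and 563 bp in the highest. Summits lay 61 to 66.5 bp inside the right gene and 64 to 67 bp inside the left gene as medians of a library, in lists whose narrowest peak is 200 bp wide. The upstream edges lay 46 to 53 bp before the right start codon and 45 to 53 bp before the left. From edge to edge the median distance was 284 bp ± 11.8 (SD, n = 8). Over the 73 regions called in every library, gap and summit distance had a correlation across regions of r = 0.957 and gap and edge distance one of r = 0.899. Edges were under 200 bp apart in 21 of these regions, 200 to 400 bp in 26 and further in 26. The positions repeated well, with a median SD over libraries of 19.1 bp for the edge distance of a region. In the same 73 regions the median summit distance was 575.75 bp ± 7.5 for YAC strains and 576.5 bp ± 22.0 for integrated strains (SD over 4 libraries each; exact two-sided permutation p = 1).

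**Figure D4:**
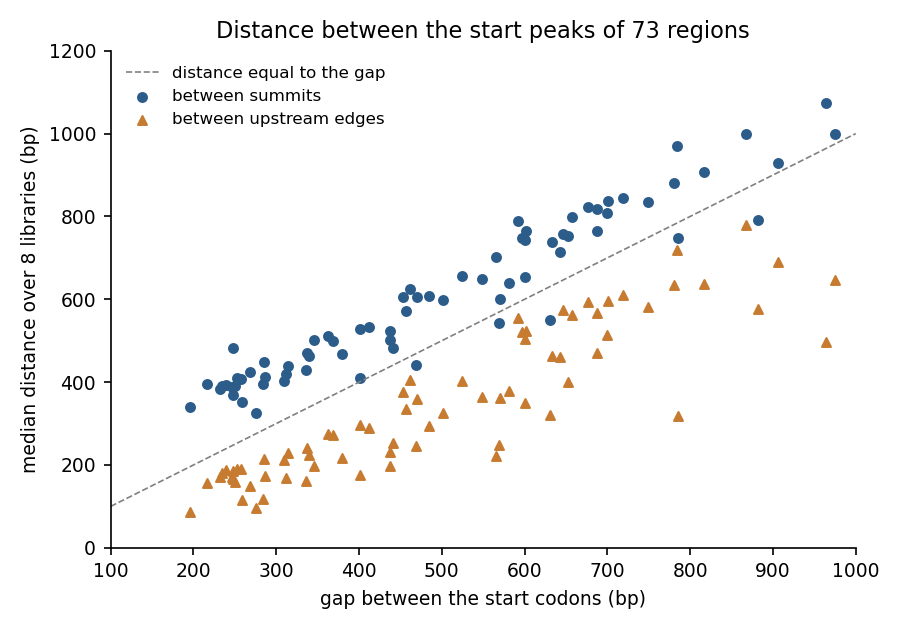
For the 73 regions with both starts in all 8 libraries, the gap between start codons is on the horizontal axis and the median distance between summits (circles) or upstream edges (triangles) on the vertical axis, all in bp. Most summit distances lie above the dashed line of equality and every edge distance below it.

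Some pairs had start peaks whose upstream edges lay very close together. These edges are borders of peaks and not single start sites. MAP2-MRP21, a methionine aminopeptidase gene and a mitochondrial ribosomal protein gene with a gap of 196 bp, had its upstream edges 86 bp apart as a median of 8 libraries. Single libraries gave -36 to 109 bp, negative where the peaks overlap. MAP2 had 4572 to 8851 tags there and MRP21 1235 to 3867. MRPL31-CMC1, a gene for a mitochondrial ribosomal protein and one for assembly of cytochrome oxidase, had edges 96.5 bp apart (-38 to 116 bp). ECM14-IGO2 had them 115 bp apart (80 to 146 bp). All 3 pairs had both starts in 8 of 8 libraries. At the other end, the summits of GLY1-IES6, which begins with a threonine aldolase gene, were 1074 bp apart.

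The opposite pattern, a start called in all 8 libraries beside a start called in none, was seen in 131 regions. The examples named here are among those with the highest percentile of fold. HSP12, which encodes a small stress-induced membrane protein, had 9066 to 36797 tags and a peak in 8 of 8 libraries, with none at the open reading frame YFL015C. CCW12, for an abundant cell wall mannoprotein, had 28580 to 54141 tags beside YLR111W. ENO2, for the glycolytic enzyme enolase, had 30128 to 51025 beside YHR173C. Of the 131 regions, 22.9% held a gene without a standard name, against 12.3% of the 73 regions with both starts in all libraries and 18.5% of all 1243. Genes with a standard name could lack a peak too. CKB1, for a regulatory subunit of casein kinase 2, had 17486 to 29190 tags beside GET1. CAF20, for a binding protein of the cap-binding factor eIF4E, had 11768 to 21977 beside RIM20. HAC1, for the activator of the unfolded protein response, had 5707 to 12859 beside RIM15, and CDC31, for yeast centrin, 5875 to 9893 beside TRE2. A missing peak says that a start did not pass against its local background, not that it made no RNA. That background differs between places. YAR1 had a median of 410 tags at a fold of 2.19, and SHS1 had 116 at a fold of 2.33.

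Gene families differed in how often both sides were called, given here as counts without a test. All 9 histone starts in divergent regions were called in 8 of 8 libraries, and their 5 regions had both starts in 82.5% ± 7.07 of cases (SD, n = 8), against 23.1% of all regions. Of 21 proteasome starts, 15 were called in all 8 libraries, and their regions had both starts in 56.0% ± 8.73. Of 19 starts of heat shock proteins and chaperones, 12 were called in all 8 (both starts 34.2% ± 6.29). Of 36 mitochondrial ribosomal protein starts, 15 were called in all 8 (28.8% ± 6.46), and of 49 ribosome biogenesis starts, 11 (28.2% ± 8.64). Glycolysis and fermentation genes were different, since 5 of 6 starts were called in all 8 libraries but both starts in only 8.33% ± 8.91 of cases (SD, n = 8). PGK1, for phosphoglycerate kinase, had 140176 to 205484 tags while its neighbour ADP1 was called in 1 library. Over all divergent starts, 22.8% were called in all 8 libraries and 27.4% in none.

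Members of families known to be silent in cells growing on glucose mostly had no peak. Of 23 meiosis and sporulation starts, 19 had no peak in any library and 0 were called in all 8, and DIT2-DIT1 and SPO22-HOP1 had no peak on either side in any library. The neighbours of these 23 starts were called in a median of 1 library, against 0 for the starts themselves and 3 over all divergent starts. Of the neighbours, 2 were called in all 8 libraries and 10 in none. TMA7 beside RED1 was called in 8 of 8 libraries and LSM8 beside REC107 in 6 of 8. Of 9 galactose and maltose starts, 6 were never called. An exception on this list was SUC2, called in 7 of 8 libraries with 93 to 562 tags. GAL10-GAL1, the textbook divergent promoter, had no peak at GAL10 and a GAL1 peak of 81 tags in 1 library, and MAL11-MAL12 and DAL1-DAL4 had none. Cell cycle and amino acid synthesis genes are not families of this kind. Of 32 cell cycle starts, 3 were called in all 8 and 6 in none (18.8%). Of 21 amino acid synthesis starts, 5 were called in all 8 and 4 in none (19.0%). Over all divergent starts, 22.8% were called in all 8 and 27.4% in none.

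Ribosomal protein genes split into callable and uncalled starts. Of 55 such starts in divergent regions, 16 were called in all 8 libraries and 26 in none, and 32 of the 55 had an intron that begins within 50 coding bases of the start codon. Over all divergent starts, the 77 with such an early intron had a peak in 19.8% ± 4.80 of cases and the other 2409 in 46.9% ± 1.85 (SD, n = 8). Whether the early intron has a part in the missing peaks was not tested.

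The DNA of the regions with both starts in all libraries differed a little from the rest, described without a test. Their median GC content was 38.8%, against 35.98% over all 1243 gaps and 34.3% in the 109 gaps with no peak. The Rpn4 word was found in 13.7% of the 73 gaps, 1.53% of the 131 gaps with a single start and 4.83% of all gaps. The Reb1 word CGGGTAA, bound by a general regulatory factor, was found in 20.5%, 14.5% and 14.0%, and the STRE in 45.2%, 33.6% and 34.3%. Other words leaned both ways, given in the same order of gaps. The searched runs of 1 base were rarer in the 73 gaps, at 17.8%, 23.7% and 24.9%. The MCB word was found in 5.48%, 6.87% and 5.55% and the PAC word in 6.85%, 4.58% and 7.80%. The Pho4 and Cbf1 word was nearly level, at 8.22%, 7.63% and 8.21%. The Gcn4 word was found in 5.48%, 3.05% and 3.46% and the SCB word in 8.22%, 5.34% and 6.36%. The 73 gaps were also longer, with a median of 469 bp against 400 bp and 448 bp, which gives a word more room.

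The comparison of YAC with integrated strains asked which head-to-head pairs depend on context or medium. Over all regions the share with both starts was 22.5% ± 0.582 for YAC strains and 23.7% ± 2.42 for integrated strains (SD over 4 libraries each). Their difference of -1.15 percentage points did not exceed the spread between libraries (exact two-sided permutation p = 0.457). With lists of equal length it was -0.261 (exact permutation p = 0.886). It was -0.101 without synHPRT1R integrated replicate 2 and -2.005 without synHPRT1 integrated replicate 2 (exact permutation p = 0.886 and 0.0571), the extremes over each library left out. Both starts were called in 4 of 4 YAC and 0 of 4 integrated libraries in 2 regions, SNO1-SNZ1 and REX2-FRS1, and in the opposite direction in 1, TBS1-APD1. No region passes adjustment over 1243 regions (lowest Benjamini-Hochberg p = 1), since Fisher's exact test of 4 against 4 libraries cannot give less than 0.0286, and these 3 regions are the ones at that unadjusted value. Counted as single starts, 4 of 2486 divergent starts (0.161%) were called in 4 of 4 YAC and 0 of 4 integrated libraries, where 0.1% of all 6002 gene starts were. In the other direction they were 2 (0.0805%), where 0.0833% of all starts were.

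SNO1-SNZ1 was the clearest of these pairs. SNZ1 and SNO1 encode the subunits of the enzyme that makes vitamin B6 and are known to be induced together when growth stops. SNZ1 had 3161 and 2169 tags in synHPRT1 YAC and 2244 and 2692 in synHPRT1R YAC. SNO1 had 450, 674, 435 and 94 tags in the same libraries. Neither start had a peak in any of the 4 integrated libraries. The edges of the pair were 374.5 bp apart, and the stretch between them, printed above, holds both Gcn4 words. The related pairs SNO2-SNZ2 and SNO3-SNZ3 had isolated peaks of 122 to 347 tags and both starts in 0 of 8 libraries. SNZ2 and SNZ3 are close copies, so their single values are uncertain.

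At REX2-FRS1 only the joint call of both starts separated the contexts. REX2, for an RNA exonuclease, had 607, 396, 851 and 913 tags in the YAC libraries and a peak of 323 tags in 1 integrated library, whose FRS1 peak was missing. FRS1, for a subunit of phenylalanyl-tRNA synthetase, was called in 7 of 8 libraries with 142 to 857 tags. At TBS1-APD1 the left start alone did, and APD1 was called in 8 of 8 libraries with 1060 to 3028 tags. TBS1, for a protein with a predicted zinc cluster, had 258, 160, 218 and 316 tags in the 4 integrated libraries and no peak in the YAC libraries, values close to the weakest minus-strand peaks of 93 to 125 tags. The other starts found in 1 context alone were CFD1 and PHM7 in YAC and NIP100 in integrated libraries, with 112 to 321 tags.

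Among starts called in all 8 libraries, levels could be compared directly. With limma on log2 tags centred on the median of each library, 6 of 1239 starts (0.484%) passed an adjusted p of 0.05 between YAC and integrated libraries, and 2 of them were among the 566 in divergent regions (0.353%). At an unadjusted p under 0.05 there were 65 of the 566 and 163 of the 1239. HSP12 had 36797, 29597, 33819 and 36041 tags in YAC libraries and 12649, 9985, 11882 and 9066 in integrated libraries. HSP12 was higher in YAC by 1.75 on the log2 scale (SE 0.24, limma adjusted p = 0.0273). CHA1, which encodes a serine and threonine deaminase, had 457, 323, 1213 and 186 tags in YAC libraries and 3311, 4340, 4224 and 2709 in integrated libraries. It was lower in YAC, with a log2 difference of -2.97 (SE 0.45, limma adjusted p = 0.0285). Both calls are fragile. With the replicate number as a block HSP12 no longer passed (limma adjusted p = 0.0606) and CHA1 did (limma adjusted p = 0.0471). Leaving out any of 7 of the 8 libraries took the limma adjusted p to 0.0657 or more for HSP12, with log2 differences of 1.61 to 1.88, and to 0.0704 or more for CHA1, with differences of -3.43 to -2.58. Without synHPRT1R YAC replicate 1 both calls held (limma adjusted p = 0.0432 and 0.00495).

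The neighbours of these genes did not share the difference in a testable way. YFL015C, beside HSP12, had no peak in any library. VAC17, beside CHA1 and known for its role in vacuole inheritance, had 196, 106, 169 and 217 tags in YAC libraries, 325 and 116 in 2 integrated libraries and no peak in the others. Of the 21 amino acid synthesis starts, 5 were called in all 8 libraries and tested, and 0 of them passed in limma. Values of the genes on this list leaned both ways. MET6, for methionine synthase, had 4348, 3149, 3323 and 2412 tags in YAC libraries, 440, 283 and 111 in 3 integrated libraries and no peak in the last, so it was not among the starts tested. With that last library, synHPRT1R integrated replicate 2, left out, MET6 had a log2 difference of 4.02 (SE 0.37, limma adjusted p = 0.00786). Its neighbour IES5, for a subunit of a chromatin remodeller, had 428 to 679 tags in YAC and 103 to 1014 in integrated libraries. LEU4, for the first enzyme of leucine synthesis, had 5863, 5744, 5688 and 5178 tags in YAC and 2730, 3205, 2480 and 2333 in integrated libraries, with a log2 difference of 1.17 (SE 0.22, limma adjusted p = 0.0802). THR1, for homoserine kinase, had a log2 difference of -0.46 (SE 0.44, limma adjusted p = 0.737). TRP1, of tryptophan synthesis, had 99, 181, 94 and 205 tags in YAC libraries, 505, 380 and 327 in 3 integrated libraries and no peak in synHPRT1R integrated replicate 1. The neighbour of LEU4, MET4, was called in 3 YAC and 2 integrated libraries with 90 to 341 tags. The histone genes HHF1 and HHF2 had log2 differences of -0.74 and -0.81 (limma adjusted p = 0.187 and 0.172).

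**Figure D5:**
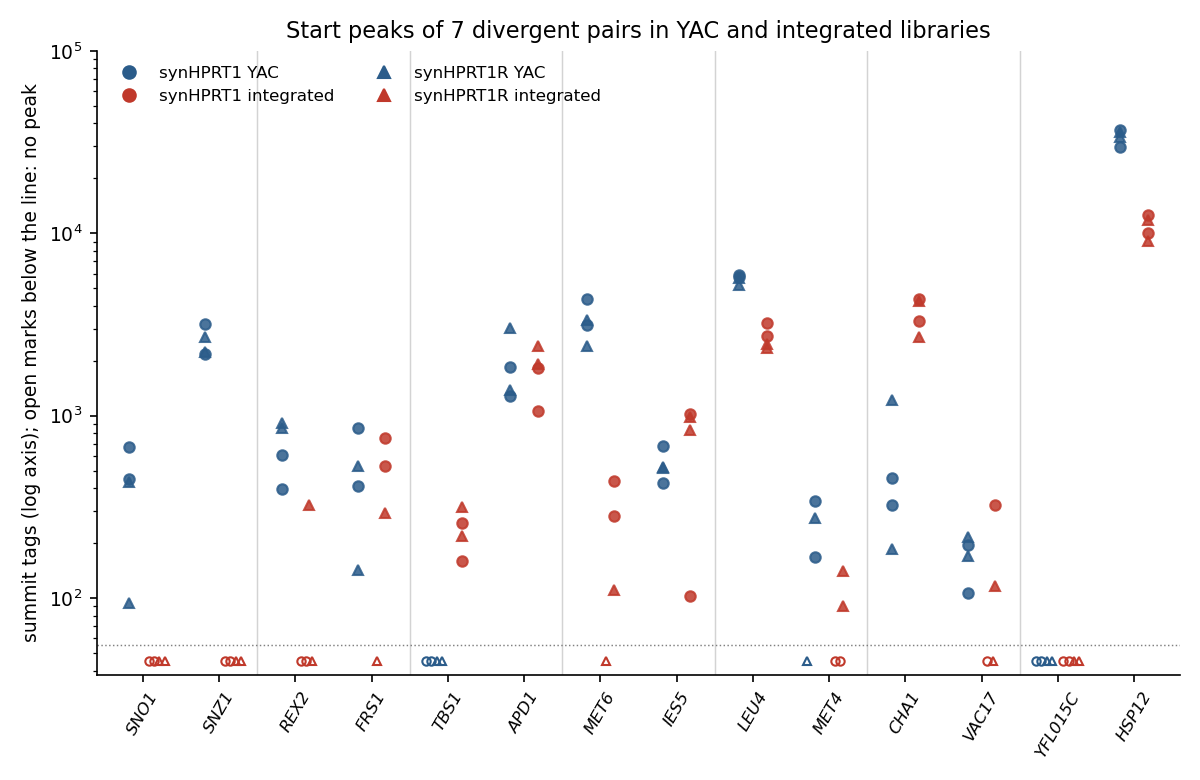
Summit tags on a log axis are shown for the starts of 7 divergent pairs, with vertical lines between pairs, blue for YAC and red for integrated libraries, circles for synHPRT1 and triangles for synHPRT1R. Open marks under the dotted line are libraries without a peak and have no value. The pairs were chosen for the text, and tags are not scaled between libraries. SNO1 and SNZ1 lack a peak in all 4 integrated libraries. The contexts do not overlap for HSP12, CHA1, MET6 or LEU4. Nor do they for starts not shown that did not pass in limma, such as HHF2, LST8, BUD20 and NOP14. Lack of overlap therefore does not set a start apart. The share of such starts over all genes was not counted.

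In the 73 regions with both starts in all libraries, the balance between the sides was compared as the log2 ratio of their tags. With limma, 0 of 73 ratios (0%) passed between YAC and integrated libraries and 0 of 73 (0%) between the sequences, with lowest adjusted p of 0.663 and 0.409. At an unadjusted p under 0.05 there were 5 and 5. The median standard error of a ratio difference was 0.54 on the log2 scale, and single differences as large as 1.55 between the sequences (GLY1-IES6) and -1.84 between the contexts (RIB4-RRP40, named after its values were seen) did not pass.

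The comparison of the reversed with the forward sequence asked whether the choice of inserted sequence touches native head-to-head pairs. The share with both starts was 24.0% ± 2.03 in synHPRT1R and 22.1% ± 0.714 in synHPRT1 libraries (SD, n = 4 each; difference 1.91 percentage points, exact two-sided permutation p = 0.114). Without synHPRT1R YAC replicate 1 the difference was 2.60 (exact permutation p = 0.0286), and across each library left out in turn it ranged from 0.992 to 2.60. The synHPRT1R libraries also held more native peaks, 3164 ± 155 against 3064 ± 66.8 (SD, n = 4 each). With lists of equal length the difference was 0.825 (exact permutation p = 0.429), and with 1 minimum of tags it was 0.664 (exact permutation p = 0.6). Both starts were called in 4 of 4 synHPRT1R and 0 of 4 synHPRT1 libraries in GCS1-SHS1 and YOR292C-RPS10A, and in the opposite direction in MDH2-TRM13. Of single starts, 4 of 2486 (0.161%) were called only in all 4 synHPRT1R libraries, where 0.117% of all gene starts were, and 2 (0.0805%) only in all 4 synHPRT1 libraries, where 0.0666% were.

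In these 3 regions the separating start was weak. SHS1, for a septin, had 97, 85, 135 and 137 tags in the synHPRT1R libraries, while its neighbour GCS1, for a GTPase-activating protein of the Arf family, was called in 8 of 8. RPS10A, a ribosomal protein gene with a close paralog, had 86, 101, 108 and 184 tags beside YOR292C, which was called in 8 of 8. TRM13, for a tRNA methyltransferase, had 105, 314, 141 and 373 tags in the synHPRT1 libraries beside MDH2, for a cytosolic malate dehydrogenase, called in 7 of 8. The weakest plus-strand peaks had 61 to 75 tags, and with lists of equal length or 1 minimum of tags no region separated the sequences. By limma, 0 of 1239 starts (0%) differed in level between the sequences, with 54 at an unadjusted p under 0.05. Of the 566 divergent starts, 24 were at an unadjusted p under 0.05, and none passed adjustment with an unmoderated linear model.

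Of the remaining classical pairs, several were called irregularly. At MRM1-HIS3, HIS3 had 628, 864, 267 and 514 tags in YAC libraries, 11978 in synHPRT1 integrated replicate 1, 518 in synHPRT1R integrated replicate 2 and no peak in the other two integrated libraries. MRM1, for a methyltransferase of mitochondrial ribosomal RNA, was called in 5 of 8 libraries with 102 to 210 tags, and both starts were found in 3. UGA3, the activator of GABA use, had a peak in 7 of 8 libraries with 152 to 571 tags, whereas GLT1, for glutamate synthase, had none. HSP82, for the inducible Hsp90 chaperone, was called in 5 libraries with 245 to 2217 tags and YAR1 in 2, never together. The CYC3-CDC19 gap measures 2260 bp and lies outside the rule.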

How the data were processed

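CAGE peak lists of 8 yeast libraries were analysed. The submitters' processing notes name MACS2 2.1.0, deepTools 3.5.0, Bowtie2 2.2.9, bcl2fastq 2.20 and SAMtools 1.9, without their roles, and the build sacCer3, per the labels. The authors deposited 32 lists, called per library, per strand and against 2 references. The 16 lists in which the insert was a separate contig were used, and the lists with the insert inside chromosome XI served as an alternative. Each deposited fold is the ratio of signal at the summit over its background. The −log10 p and −log10 q of each peak were deposited as well, the latter never below 1.31. The deposited score column was not used. Fold and p follow a Poisson model, from which summit tags were solved. They came out whole within 0.1 for 97.7% to 99.5% of peaks, and the fold never exceeded 49.99.

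Genes came from the R64 annotation, whose 16 nuclear chromosomes are at least as long as the largest peak end on each. Summits and edges were taken from the peak with the highest −log10 p at a start. Odds ratios had 0.5 added to each cell. Libraries were compared with exact sign-flip tests (256 arrangements) or exact permutation tests (70 arrangements, smallest p 0.0286), and regions with Fisher's exact test. Levels were tested with limma 3.58.1 in R 4.3.3, with context and sequence as terms and Benjamini-Hochberg adjustment. That test was added after the presence calls had been seen. Other steps used Python 3.11.15, NumPy 2.4.6, SciPy 1.17.1 and pandas 2.3.3. Functions were tested on simulated data. The members and the 12 gene lists were chosen with earlier results of these data known. Named regions were fixed textbook pairs, the 8 strongest with both starts and with a single start, regions separating groups, the closest and farthest summits, those nearest the gap limits and up to 4 per list. Other genes are named as such or because a test called them. Symbols MEL1, ZIP3 and CDC46 had no match. Labels mention no molecular identifiers, so intervals cover counting error only. Alternatives covered the q threshold, the window, summits, list length, reference, region filters, strand sensitivity, a block for replicate numbers and leaving out libraries 1 at a time.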

Additional observations from a re-analysis of the deposited data

Results flagged for a closer look

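Extreme libraries were sought by the gap of the highest or lowest library to its neighbour, divided by the range. In 97 sets of 4 to 8 libraries, 10 had such a library, and chance flags about 1 set in 20. The sets overlap, so that 1 library can appear several times.

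synHPRT1R integrated replicate 2 had the largest share of left starts with a peak, 48.3%, in the sets of integrated, of synHPRT1R and of all libraries. It also had the largest share of start peaks with an opposite-strand peak, 23.9%, among integrated and among all libraries. synHPRT1 integrated replicate 1 stood above the other synHPRT1 libraries in median summit distance, 536.5 bp, and in the share of gaps under 300 bp with both starts, 22.5%.

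Among the fixed pairs, HIS3 in MRM1-HIS3 reached a log2 of 13.55 summit tags in synHPRT1 integrated replicate 1, far above all other libraries with a peak. HHT1 in HHF1-HHT1 was high in synHPRT1 integrated replicate 2, at a log2 of 11.81. UGA3 in GLT1-UGA3 was low in synHPRT1R integrated replicate 2, at a log2 of 7.25.

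For gaps of 500 bp or more, the share with both starts was higher in both YAC libraries than in both integrated libraries for synHPRT1, by 0.938 percentage points, and lower in both for synHPRT1R. Its values were 23.3% and 23.5% against 22.7% and 22.1% for synHPRT1, and 22.0% and 22.9% against 25.1% and 26.5% for synHPRT1R. The difference between the sequences was not tested.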

How the results depend on the processing

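The log2 odds ratio of divergent starts, the share of starts with a peak and the opposite-strand share kept their direction and call under every alternative tried for them. The opposite-strand difference, at 3.92 to 26.7 percentage points, contains the arrangement of the genes itself. The difference from tandem pairs kept its direction in each, but with gaps up to 600 bp its adjusted p was 0.0625 (0.12, exact sign-flip). The share with both starts was 19.8% with a −log10 q of at least 10, 17.2% with the summit inside the window, 19.4% with equal list lengths and 19.7% with 1 minimum of tags. The difference from convergent pairs lost its call with the stricter q (0.12), a window of 200 and 50 bp (0.14), windows held to the gap (0.17), the other reference (0.12), equal lists (0.18), without repeats (0.16) and with gaps up to 600 bp (0.097), and was 0.12 to 0.20 with 1 library left out. The short-gap difference lost its call with the stricter q (-0.966), equal lists (-0.866) and 1 tag minimum (-0.801). The fold percentile difference lost its call with gaps up to 600 bp (1.85). The strand difference was 0.352 with 1 tag minimum and -0.724 with equal lists. The cause of these changes was not tested.

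The summit distance difference between contexts, near 0 in the main analysis, changed sign to 9.25 bp with the stricter q, 6.75 with summits in the window, 7.625 with the other reference, 2.125 with equal lists, without RNA genes or without repeats, 0.625 with gaps up to 600 bp and 1.25 without early introns, and was -7.25 to 12.1 with 1 library left out. The median summit distance was 443 bp with gaps up to 600 bp. From edge to edge it was 284 bp. With 1 library left out, the sequence difference was 0.992 to 2.60 and the context difference -2.005 to -0.101.

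Regions separating the sequences numbered 1 with the stricter q, 0 with equal lists and 0 with 1 tag minimum. At 3 of 4 against 1 of 4 libraries, 48 separated the contexts and 45 the sequences. With 1 library left out, which loosens the rule, the counts were 3 to 9 for context and 4 to 8 for sequence. For limma levels between contexts, 1 divergent start passed with the replicate block, 1 without centring and 0 to 2 with 1 library left out, where starts called in the remaining libraries are tested. They were HSP12 and CHA1 without synHPRT1R YAC replicate 1, OPI3 and DIC1 without synHPRT1 integrated replicate 2, MET28 without synHPRT1 YAC replicate 2 and MET6 without synHPRT1R integrated replicate 2. For ratios between contexts, 0 to 1 passed, the 1 being DIC1-ORM2 without synHPRT1 integrated replicate 2.

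Replicate numbers did not pair libraries. Differences between replicates correlated across starts at r = -0.06 to 0.004 between groups. With the replicate block the differences of -1.15 and 1.91 percentage points had exact permutation p = 0.5 and 0.167. Beside HSP12 no call changed. Of the named regions, the number of libraries with both starts moved by over 1.5 times most often when the summit had to lie in the window, in 20 of 73. Depth limits all presence calls, since weak starts do not pass against their background.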
